A study of Drosophila melanogaster with 6 samples.

Results

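The genes described here encode the proteins of the cytosolic ribosome of Drosophila melanogaster, together with their paralogues. They were chosen by name from the count table: every gene named RpL, RpS or RpLP followed by a digit, without RpLP0-like, plus sta and sop. The rule gave 92 of 23882 features, of which 53 belong to the large subunit, stalk proteins included, and 39 to the small subunit. The gene also called sop is listed in the table under the name RpS2, so that it was counted once, and sta is listed under its own name. All 92 were found in the annotation.

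The ribosome builds proteins from messenger RNA. Its small subunit reads the message and its large subunit joins the amino acids, and each subunit needs a full set of ribosomal proteins in matching amounts. In the fly, loss of a single copy of many of these genes gives the Minute phenotype of slow development and thin bristles. Their promoters share a pyrimidine-rich start site, and many of the genes carry small nucleolar RNAs (snoRNAs), which guide chemical modification of ribosomal RNA, inside their introns.

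RNA was sequenced from S2 cells, an established embryo-derived Drosophila line, after knockdown of Hlc, a DEAD-box RNA helicase. The groups were cells given Hlc double-stranded RNA (dsRNA) number 3, cells given Hlc dsRNA number 2, and control cells given dsRNA against beta-galactosidase, a bacterial gene that flies lack. Each of the 3 groups had 2 libraries, described as biological replicates, made from polyadenylated RNA on day 3. All groups therefore took up dsRNA, and both Hlc groups were compared with the same 2 control libraries. The same cell line was used throughout.

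Library totals ran from 56195472 to 84283999 counts. Hlc itself had 1309 and 1883 counts with dsRNA 3 and 1320 and 1245 with dsRNA 2, against 15458 and 19095 in the controls, a log2 fold change of -4.08 with both dsRNAs. Replicates differed by more than sampling noise in every group. The label calls the cells embryonic stem cells, whereas markers of plasmatocytes, the phagocytic blood cells of the fly, were present: the 10 markers summed to between 6060 and 6740 CPM, a counts-per-million unit, in the 4 Hlc libraries and between 3460 and 3630 CPM in the controls. Most of that sum came from vkg, at 4237 CPM in the Hlc libraries and 2246 CPM in the controls, and Nplp2, at 1474 CPM in the Hlc libraries and 376.6 CPM in the controls. Of the 9 plasmatocyte markers tested, 4 were called higher, 3 lower (srp, crq and He) and 2 were not called, where 64.8% of all features were called, 32.2% higher and 32.6% lower. Hml averaged 0.448 CPM in the Hlc libraries and 0.697 CPM in the controls, and NimC1 0.0612 CPM in the Hlc libraries and 0.109 CPM in the controls. The 3 lamellocyte markers summed to between 14.7 and 17.2 CPM in the Hlc libraries and between 70.6 and 71.6 CPM in the controls, nearly all of it PPO3. The 4 ovarian somatic markers summed to between 48.1 and 56.7 CPM in the Hlc libraries and between 60.0 and 61.1 CPM in the controls: Fas3 was lower (log2 fold change -6.05), piwi (2.24) and fs(1)Yb (1.07) were higher, and tj was at 0 in every library. The 3 crystal cell markers summed to under 1 CPM in every library, with PPO2 at 0. The 3 neuronal markers summed to between 64.8 and 77.8 CPM in the Hlc libraries and between 62.9 and 70.2 CPM in the controls. Most of that came from brp, at 59.4 CPM in the Hlc libraries and 58.3 CPM in the controls. The part of these markers in the results that follow was not tested. In bulk RNA, fewer cells of a type and less RNA per cell cannot be told apart.

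Ribosomal protein genes took up a smaller share of the library after Hlc knockdown. They held 21.0% and 19.7% of all counts with dsRNA 3, 21.3% and 22.4% with dsRNA 2, and 28.7% and 26.4% in the controls. All 4 Hlc libraries lay below both controls. The mean share was 21.1% ± 1.10 in the Hlc libraries (SD, n = 4) and 27.6% ± 1.58 in the controls (SD, n = 2), a difference of -6.46 percentage points and a ratio of 0.765. This share needs no scaling between libraries. With the 100 most abundant other features of each library left out, the shares were 25.2% and 34.6%, a ratio of 0.728.

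**Figure D1:**
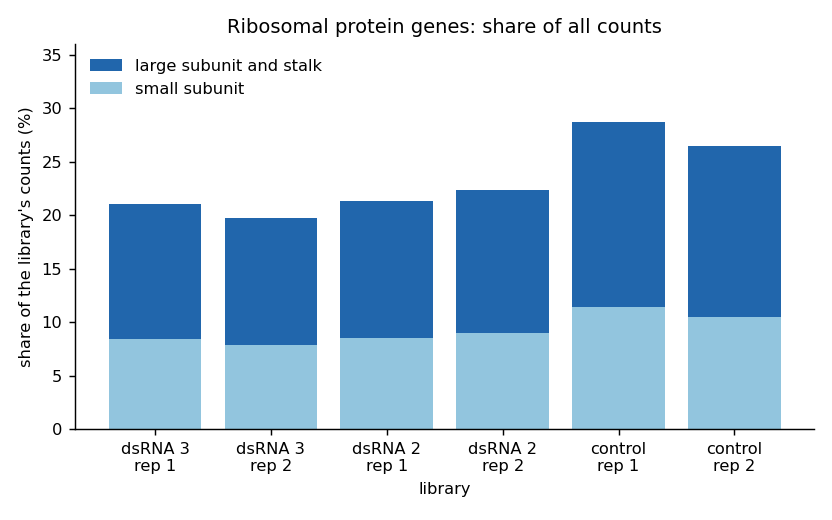
Share of each library's counts held by ribosomal protein genes, in percent, stacked by subunit, for 2 libraries each of dsRNA 3, dsRNA 2 and control. The 4 Hlc libraries stand between 19.7% and 22.4% and the controls at 28.7% and 26.4%, and both subunits hold a smaller share in the Hlc libraries.

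Most of the genes fell with both dsRNAs. Of the 92 genes, 87 had enough counts to be tested with the quasi-likelihood test of edgeR, adjusted by the Benjamini-Hochberg method over all 11293 features tested. With both Hlc dsRNAs, 83 genes were called lower and 1 was called higher at an adjusted p under 0.05. Among all features tested, 64.8% were called in this comparison, 32.6% lower and 32.2% higher. The median log2 fold change of the genes was -0.93, with the middle part between -1.04 and -0.86 (quartiles), against 0.04 over all features. In 84 of the 87 genes all 4 Hlc libraries lay below both controls in CPM, against 35.4% of all features. The p-values set the difference between groups against the spread between these libraries, and all standard errors (SE) are those implied by the test.

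The size of the fall depends on the scaling, because the scaling factors of edgeR (TMM) lay between 1.13 and 1.16 in the Hlc libraries and at 0.751 and 0.778 in the controls. Scaled to library size alone, the median was -0.35 while the median of all features moved to 0.62. With upper-quartile factors the medians were -0.79 for the genes and 0.19 for all features. A change of factors moves all features alike, so that the distance of the genes from the median of all features, -0.98 under TMM from unrounded medians, is nearly fixed by construction and is no check on the scaling. Every CPM below is scaled with TMM, and no value here measures RNA per cell.

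Both dsRNAs gave this picture separately. With dsRNA 3, 83 genes were called lower and 1 higher, with a median log2 fold change of -1.01, where 61.6% of all features were called, 31.6% lower and 29.9% higher. With dsRNA 2, 82 were called lower and 1 higher, with a median of -0.85, where 60.7% of all features were called, 30.3% lower and 30.4% higher. Scaled to library size alone, the count with dsRNA 2 was 52 lower and 2 higher. The shares of all features called under that scaling are not reported here, and those under TMM are no background for it. RpL38, a large subunit protein, made the difference between the dsRNAs under TMM: its log2 fold change with dsRNA 2 was -0.46 (SE 0.17, edgeR adjusted p = 0.053), and it was called under other settings, such as limma-voom (0.0422). Because both comparisons use the same controls, they are not independent of each other.

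**Figure D2:**
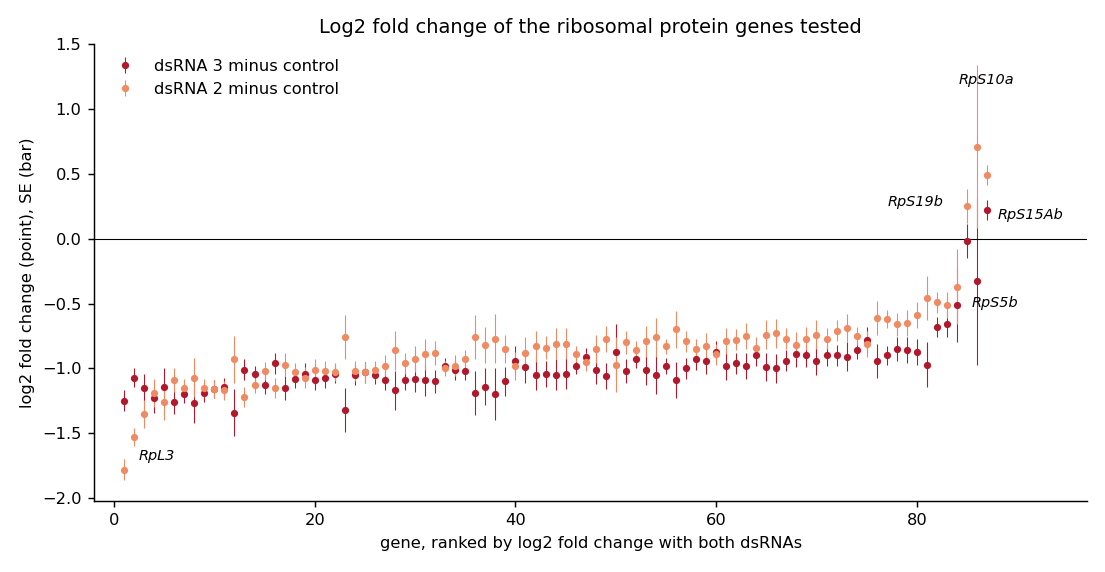
Log2 fold change against control (vertical axis) of the 87 genes tested, ranked by the value with both dsRNAs (horizontal axis), for dsRNA 3 and dsRNA 2; bars are 1 SE. Nearly all points lie near -1, RpL3 is the lowest, and RpS5b, RpS19b, RpS10a and RpS15Ab stand at the upper end.

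Genes of both subunits fell. All 50 large subunit genes tested were called lower, where 32.6% of all features were, with a median log2 fold change of -0.95. Of 37 small subunit genes, 33 were called lower, 1 higher and 3 were not called, with a median of -0.93. Taking only the 79 main genes (those left after setting aside the less abundant copy of each paralogue family), the medians were -0.98 over 47 large and -0.94 over 32 small subunit genes, and all 79 were called lower.

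Summed counts gave nearly the same balance of subunits in every library. The log2 ratio of large over small subunit counts was 0.586 and 0.592 with dsRNA 3, 0.567 and 0.570 with dsRNA 2, and 0.599 and 0.603 in the controls. The 4 Hlc libraries lay below both controls, by -0.022 on average on the log2 scale. Computed from the median CPM of the main genes instead, the difference was 0.03, in the opposite direction. No direction is therefore given for the balance of the subunits.

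Within the large subunit, RpL3 fell furthest. RpL3 (FBgn0020910, chromosome 3R, 11221894 to 11225173, plus strand, in the Ensembl annotation of BDGP6.54) encodes a protein that reaches towards the catalytic centre of the ribosome. It stood at 2414 and 2335 CPM with dsRNA 3, at 1585 and 1698 CPM with dsRNA 2, and at 5989 and 5273 CPM in the controls. The Hlc libraries did not overlap the controls, and the dsRNA 2 libraries were the lowest. With both dsRNAs the log2 fold change was -1.51 (SE 0.07, edgeR adjusted p = 1.48e-06).

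RpL22, an RNA-binding protein of the large subunit (FBgn0015288, chromosome X, 762560 to 765130, minus strand), followed the same order of groups. Its level was 1154 and 1199 CPM with dsRNA 3, 838 and 873 CPM with dsRNA 2, and 2608 and 2331 CPM in the controls. The log2 fold change was -1.30 (SE 0.06, edgeR adjusted p = 1.94e-06). RpL22 shares 34.3% of its exonic bases with lncRNA:CR42491 on the same strand, which had 11086 and 14208 counts with dsRNA 3, 18944 and 15740 with dsRNA 2, and 4363 and 4863 in the controls. The noncoding RNA was thus high where RpL22 was low, and how reads of the shared bases were divided is not given in the sources used here. The part of this overlap in the value of RpL22 was not tested.

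RpL10Ab, which forms the mobile L1 stalk, RpL30 and RpL15 completed the 5 largest falls, with log2 fold changes of -1.25 (SE 0.09), -1.21 (SE 0.09) and -1.20 (SE 0.11). RpL10Ab stood at 1639 and 1388 CPM with dsRNA 3, 1248 and 1387 CPM with dsRNA 2, and 3582 and 3124 CPM in the controls, with no overlap between Hlc and control libraries. The genes RpLP0, RpLP1 and RpLP2, whose proteins form the acidic stalk that recruits elongation factors, had values of -1.06, -0.93 and -0.98. RpL40 and RpS27A, made as fusions to ubiquitin, were both at -1.05.

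Among the main genes, those of the small subunit ran from -1.18 to -0.58 and those of the large subunit from -1.51 to -0.58. RpS26, at the exit of the messenger RNA channel, had the lowest value, -1.18 (SE 0.07). The gene sta encodes a protein whose human relative is also known as the laminin receptor. Its RNA stood at 4659 and 4669 CPM with dsRNA 3 and at 4436 and 4738 CPM with dsRNA 2. In the controls the RNA stood at 10590 and 10000 CPM, a log2 fold change of -1.15 (SE 0.05). RpS6, the substrate of S6 kinase, had a value of -1.03 (SE 0.06), and RpS2 one of -0.94 (SE 0.10).

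The smallest falls among the main genes were those of RpL21 and RpS3A. RpL21 stood at 3422 and 2936 CPM with dsRNA 3, 3612 and 3634 CPM with dsRNA 2, and 5186 and 4970 CPM in the controls, a log2 fold change of -0.58 (SE 0.07). RpS3A, the one member on chromosome 4, stood at 1621 and 1373 CPM with dsRNA 3, 1607 and 1710 CPM with dsRNA 2, and 2486 and 2238 CPM in the controls, also -0.58 (SE 0.08). Neither gene overlapped the controls in any Hlc library. Scaled to library size alone, neither was called (edgeR adjusted p = 0.995 for RpL21 and 0.986 for RpS3A), and the value of RpL21 was 0.00.

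**Figure D3:**
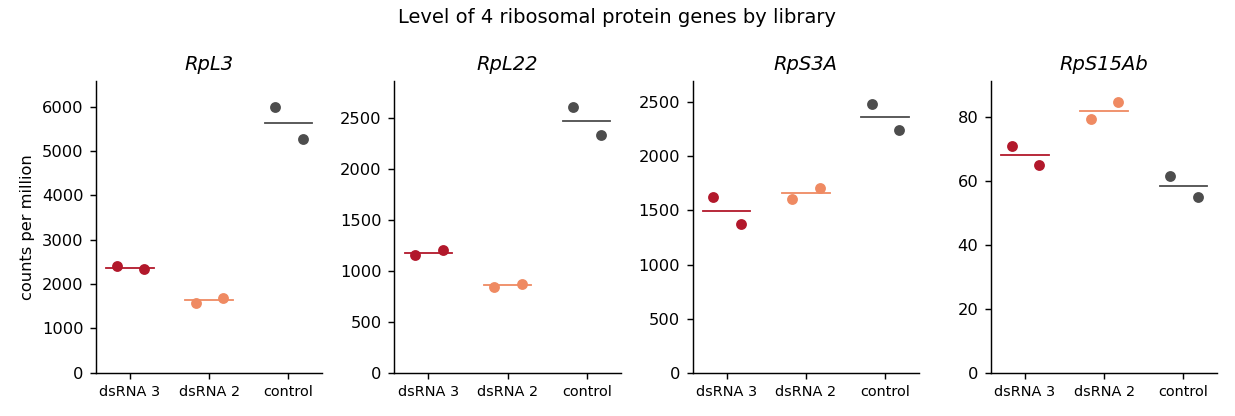
Level of RpL3, RpL22, RpS3A and RpS15Ab in CPM (vertical axis, from 0) in each library of dsRNA 3, dsRNA 2 and control; points are libraries and lines are group means. RpL3 and RpL22 are lowest with dsRNA 2, whereas RpS15Ab is highest with dsRNA 2 and lowest in the controls.

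The falls were spread over the genome. The median log2 fold change of main genes was -0.93 on each of the chromosome arms 2L, 2R and 3R and -1.06 on 3L, and on the X the quartiles were -1.04 and -0.91. The 29 main genes that host snoRNAs had a median of -0.99, and the other 50 one of -0.93. All 5 genes with the largest falls host at least 1 snoRNA, RpL3 hosting 4. Main genes that share more than 20% of their exonic bases with another gene numbered 6, with a median of -1.19. The other 73 had a median of -0.94. Of the 5 largest falls, RpL3 (22.2%), RpL22 (34.3%) and RpL30 (25.1%) are among the 6, and RpL15 (6.7%) and RpL10Ab (0.5%) are not. These medians are descriptions, and no difference between them was tested.

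By level per kilobase of exon, RpL41, RpLP1, RpL31, RpLP2 and RpL27A were among the most abundant members. RpLP1 stood at 5238 ± 670.3 CPM per kilobase in the Hlc libraries (SD, n = 4) and 9958 ± 1139 in the controls (SD, n = 2). RpL41, which encodes a very short peptide, stood at 4944 ± 1064 CPM per kilobase in the Hlc libraries and 10780 ± 1460 in the controls. All 5 were called lower, with log2 fold changes between -1.14 and -0.93.

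The direct comparison of the dsRNAs called none of the 87 genes, where 0.0797% of all features were called, 0.0177% higher and 0.062% lower with dsRNA 3. At an unadjusted p under 0.05 there were 17 of the 87 genes, a share similar to that of all features (2298 of 11293). The median difference, dsRNA 3 minus dsRNA 2, was -0.15. DESeq2 called 4 genes higher and 5 lower, and limma-voom called 2 higher. The shares of all features called by these tools are not reported here, so that these counts have no background beside them. RpL3 differed by 0.53 (SE 0.08, edgeR adjusted p = 0.0586) and RpL22 by 0.46 (SE 0.07, edgeR adjusted p = 0.0615), both higher with dsRNA 3. Both were called by DESeq2 (adjusted p = 7.24e-10 for RpL3 and 2.22e-08 for RpL22) and by limma-voom (0.0379 for RpL3 and 0.0386 for RpL22), and by edgeR with a filter of 1 CPM in 4 libraries (0.0283 for RpL3 and 0.0323 for RpL22), so that their call rested on the tool and the filter. By p-value, RpS12 at 0.21, RpLP0 at 0.19 and RpL10Ab at 0.20 followed on the same side. On the other side, the 5 genes with the smallest p-values were RpS14a at -0.56, RpS27 at -0.29, RpS21 at -0.28, and RpL29 and RpS15Ab both at -0.27. Genes with larger p-values reached larger differences, such as RpS10a at -1.04, RpL38 at -0.51, and RpL36 and RpLP2 both at -0.43.

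Replicate differences varied most from gene to gene with dsRNA 3, where their SD over the main genes was 0.18, against 0.06 with dsRNA 2 and 0.06 in the controls. Over the 79 main genes the median of replicate 2 minus replicate 1, in log2 CPM, was -0.18 with dsRNA 3, 0.09 with dsRNA 2 and -0.17 in the controls. With dsRNA 3 the lowest value was -0.61, for RpL36. The 20 genes with under 700 exonic bases had a median of -0.24 there, and the 21 with 1200 or more one of -0.05. In the controls the same genes had medians of -0.20 and -0.14, so that short genes stood lower in replicate 2 there too, and with dsRNA 2 the medians were 0.10 and 0.09. Without dsRNA 3 replicate 2, the difference between the dsRNAs was -0.16 in place of -0.43 for RpL36, -0.24 in place of -0.51 for RpL38 and -0.15 in place of -0.41 for RpL41. Without dsRNA 3 replicate 1 instead, RpL38 was called, at -0.83 (edgeR adjusted p = 0.0387). With the trend on exonic length removed, the median difference between the dsRNAs was 0.01 in place of -0.15.

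**Figure D4:**
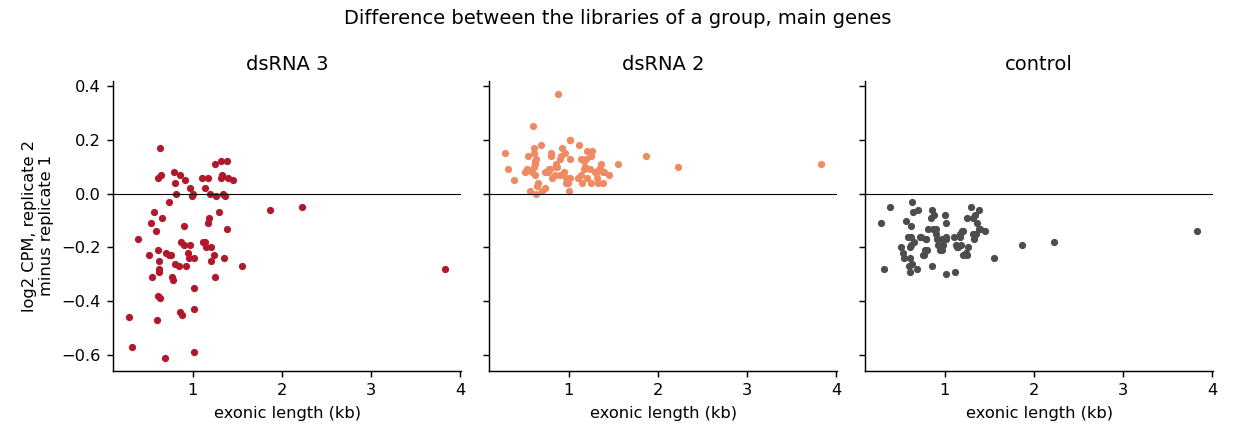
Difference between the 2 libraries of each group, replicate 2 minus replicate 1 in log2 CPM (vertical axis), against exonic length in kilobases (horizontal axis) for the 79 main genes. Points spread most with dsRNA 3, where RpL36 reaches -0.61, and lie close together with dsRNA 2 and in the controls.

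The less abundant copies differed among themselves in direction. There were 13 such paralogues in 12 families, several of them known from the fly mainly for expression in the gonads. RpL10Aa, RpL22-like, RpS28a and RpS28-like had 0 counts in all 6 libraries, which allows up to 0.00728 CPM over the 6 libraries (3 counts against their unscaled totals), a limit of counting error only. RpL37b had 0 counts in both dsRNA 3 libraries, 1 and 3 with dsRNA 2, and 7 and 0 in the controls, and was not tested. Of the 8 that were tested, 4 were called lower, 1 was called higher and 3 were not called, and their median was -0.60 on the log2 scale. Being called at all was about as common here as among all features (64.8%).

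RpS15Ab was the one gene called higher. RpS15Ab (FBgn0033555, chromosome 2R, 10821676 to 10822399, plus strand) is a copy of the small subunit gene RpS15Aa (FBgn0010198, chromosome X, 13335637 to 13337705, minus strand). It stood at 71.0 and 64.9 CPM with dsRNA 3, 79.2 and 84.6 CPM with dsRNA 2, and 61.6 and 55.1 CPM in the controls. All 4 Hlc libraries lay above both controls; of all features, 71.5% had the Hlc libraries wholly on one side of the controls. The log2 fold change was 0.35 with both dsRNAs (SE 0.07, edgeR adjusted p = 0.00313), 0.22 with dsRNA 3 (SE 0.08, adjusted p = 0.0446) and 0.49 with dsRNA 2 (SE 0.08, adjusted p = 0.00133). The call with dsRNA 3 alone was lost without dsRNA 3 replicate 1 (adjusted p = 0.191), without control replicate 2 (0.202), and without dsRNA 2 replicate 1 (0.0634) or replicate 2 (0.0559) in the same edgeR fit. It was lost too with TMM factors computed without the ribosomal protein genes (0.0565) and with the replicate number as a block (0.0539).

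RpS15Aa, the main copy, fell over the same libraries. It stood at 2329 and 1999 CPM with dsRNA 3, 2449 and 2580 CPM with dsRNA 2, and 4220 and 3646 CPM in the controls, a log2 fold change of -0.75 (SE 0.09, edgeR adjusted p = 1.76e-04). RpS15Ab therefore made up 2.96% and 3.15% of the counts of the pair with dsRNA 3, 3.13% and 3.17% with dsRNA 2, and 1.44% and 1.49% in the controls. The log2 ratio of RpS15Ab over RpS15Aa was 1.11 higher in the Hlc libraries, a 2.15-fold change that needs no scaling between libraries. How reads matching both copies of a pair were divided is not given in the sources used here, so that every pair ratio is uncertain to that extent. With 4 libraries against 2 there are 15 splits, and the exact two-sided permutation test gave p = 0.133, the smallest it can give (0.152 adjusted over 8 pairs).

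RpS19b and RpS10a also took a larger share beside a main gene that fell. RpS19b stood at 5.99 and 5.86 CPM with dsRNA 3, 6.95 and 7.31 CPM with dsRNA 2, and 5.91 and 6.10 CPM in the controls, and was not called (log2 fold change 0.11, SE 0.11, edgeR adjusted p = 0.396). Its share of the pair with RpS19a was 0.195% ± 0.0171 in the Hlc libraries (SD, n = 4) and 0.0968% ± 0.00650 in the controls (SD, n = 2). RpS10a, with 124 counts over all libraries, held 0.0141% ± 0.00666 of its pair in the Hlc libraries and 0.00614% ± 0.000822 in the controls. Both log2 ratios were higher in all 4 Hlc libraries, by 1.01 for RpS19b and 1.07 for RpS10a, each with the exact permutation p = 0.133.

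The other pairs shifted less. RpS5b, at 4.57 and 2.47 CPM with dsRNA 3, 3.54 and 4.19 CPM with dsRNA 2, and 5.17 and 4.81 CPM in the controls, was not called (log2 fold change -0.44, SE 0.24, edgeR adjusted p = 0.153). Without dsRNA 3 replicate 1 it was called, at -0.69 (adjusted p = 0.0125). RpL24-like and RpL7-like, whose yeast relatives Rlp24 and Rlp7 are ribosome assembly factors rather than parts of the finished ribosome, fell by 0.80 and 0.79 on the log2 scale. RpL24-like held 11.0% ± 0.340 of its pair in the Hlc libraries (SD, n = 4) and 9.40% ± 0.0565 in the controls (SD, n = 2). For RpL7-like the shares were 4.69% ± 0.192 in the Hlc libraries and 4.09% ± 0.233 in the controls. RpL7-like shares 98.8% of its exonic bases with CG34164 on the same strand, so that its counts are uncertain. RpL34a held 14.8% ± 0.485 of its pair with RpL34b in the Hlc libraries and 13.9% ± 0.160 in the controls.

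RpS14a and RpS14b lie next to each other on the X chromosome and are near-identical copies, so that the division of their reads is uncertain. RpS14b held 43.0% and 48.1% of the pair with dsRNA 3, 40.6% and 28.8% with dsRNA 2, and 41.7% and 33.1% in the controls, and the groups overlapped (exact two-sided permutation p = 0.8). Summed, the pair stood at 2231 and 1791 CPM with dsRNA 3, 2383 and 2570 CPM with dsRNA 2, and 4841 and 3984 CPM in the controls. The sum had a log2 fold change of -0.98 (SE 0.11, edgeR adjusted p = 1.56e-04), beside a median of -0.96 over all main genes.

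**Figure D5:**
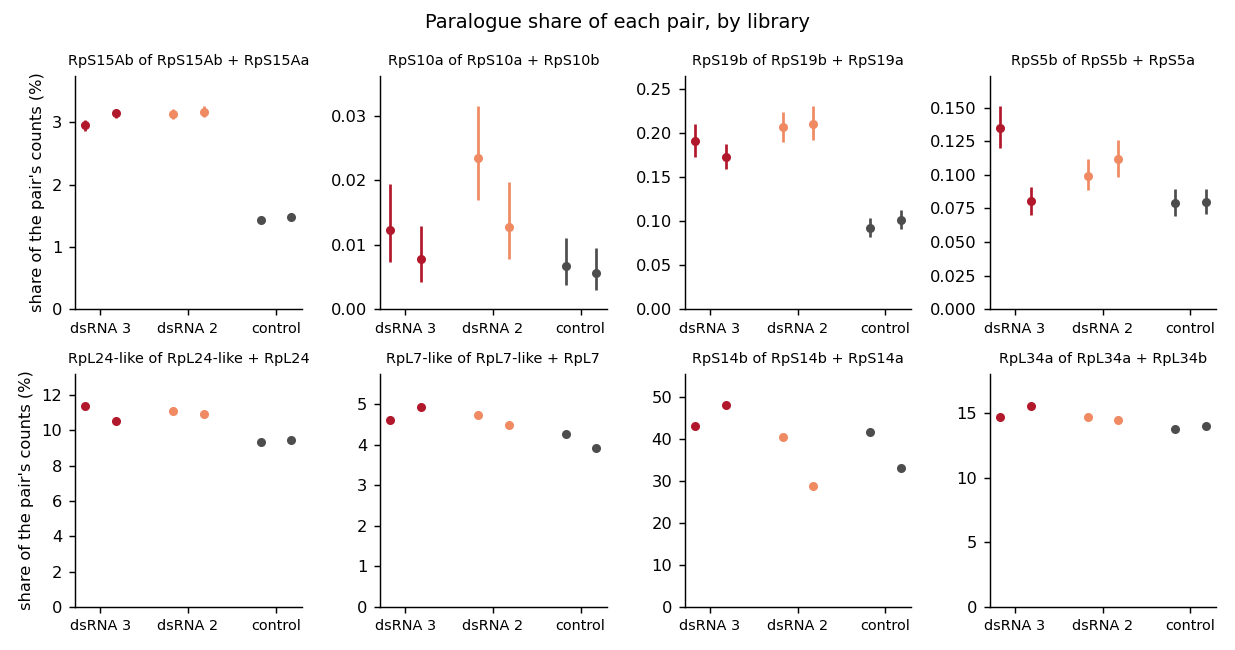
Share of each pair's counts held by the less abundant copy, in percent (vertical axes from 0, each with its own scale), for every library of dsRNA 3, dsRNA 2 and control; bars are exact 95% binomial intervals, which cover counting error only. RpS15Ab lies between 2.96% and 3.17% in the 4 Hlc libraries, against 1.44% and 1.49% in the controls, while RpS14b overlaps between groups.

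Genes that act beside the ribosome did not all follow it. Of 7 elongation factor genes, 6 were called lower, where 32.6% of all features were: eEF1alpha1, which brings aminoacyl-tRNA to the ribosome, had a log2 fold change of -0.98 (SE 0.05), eEF1beta one of -1.05, eEF1gamma one of -0.89, and eEF2, which moves the ribosome along, one of -0.75. eEF1delta, an exchange factor subunit, was called higher, at 0.90 (SE 0.07). Rack1, a scaffold protein bound to the small subunit, fell by 1.19 on the log2 scale. RpLP0-like, whose yeast relative Mrt4 takes part in ribosome assembly, was called higher, at 1.37 (SE 0.06).

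The 73 mitochondrial ribosomal protein genes, which serve a separate ribosome, had a median of 0.11, with 27 called higher and 18 lower, where 32.2% of all features were called higher and 32.6% lower. Of 19 genes listed as regulators of ribosomal protein genes or of growth, 12 were called higher, 5 lower and 2 were not called. Thor, an inhibitor of cap-dependent translation, averaged 196.5 ± 37.7 CPM in the Hlc libraries (SD, n = 4) and 2371 ± 160 CPM in the controls (SD, n = 2), a log2 fold change of -3.61 (SE 0.10). Xrp1, a stress-responsive transcription factor that acts in cells short of ribosomal proteins, had a value of -1.60 (SE 0.07), and its partner Irbp18 one of -1.67 (SE 0.11). The RNA-binding protein gene larp stood at -1.32 (SE 0.07). On the other side, foxo stood at 1.62 (SE 0.09), and Myc, which promotes growth, averaged 46.6 ± 4.18 CPM in the Hlc libraries and 24.4 ± 3.30 CPM in the controls, a log2 fold change of 0.94 (SE 0.11).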

How the data were processed

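The authors deposited 1 table of whole-number counts per feature, not normalized, with a column for each of 6 libraries. Per the submitters' processing notes, the tools were Trimmomatic 0.36, TopHat2 2.1.0 and StringTie 2.1.7 with build BDGP6; the notes give no roles. How reads were counted, by which strand, and what became of multi-mapping reads is not given in the sources used here. Reads of near-identical or overlapping genes may thus be divided in unknown ways. Positions (1-based), exons and nested snoRNA genes come from the Ensembl annotation of BDGP6.54, release 115, which held 99.7% of the identifiers.

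Features were kept by filterByExpr, scaled by TMM and tested by edgeR 4.0.16 (quasi-likelihood F test, R 4.3.3), in 1 fit of 6 libraries with a term per group. The SE is the absolute log2 fold change over the square root of F. Pair ratios used a pseudocount of 0.5 and an exact permutation test (scipy 1.17.1). The fit was tested on simulated data, where it recovered 62 of 98 changes of 2-fold and 77 of 93 of 4-fold. There were 10 false calls among 10868 features tested. Far fewer features changed there than the 64.8% called in the data, so that the simulation is no check on the scaling.

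The members, gene lists and tests were chosen with earlier results of these data known. Named genes were Hlc, all paralogue pairs, members not tested, the 6 most abundant per kilobase (1 is not reported here), the 5 lowest and 5 highest values, members higher or not called, the 5 smallest adjusted p each way between dsRNAs, RpL3, RpS6, sta and RpS2, and up to 4 genes per list. RpS3A, RpS26, RpL36, RpL38, RpL40, RpS27A, the stalk genes, Rack1, RpLP0-like, eEF1delta, Irbp18, Myc and the overlapping partners were named after their values were seen, or for their role.

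As alternatives, scaling used size factors of DESeq2, upper quartiles or library size alone; others were TMM without the ribosomal protein genes, other filters, DESeq2 1.42.0, limma-voom (limma 3.58.1), a replicate block, each library left out, fits of only the groups compared and removal of a loess trend on exonic length. The sum of RpS14a and RpS14b was chosen after seeing the data. Between replicates, chi-square over degrees of freedom was 37.9 with dsRNA 3, 31.6 with dsRNA 2 and 27.4 in the controls, above sampling noise.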

Additional observations from a re-analysis of the deposited data

How the results depend on the processing

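The calls of the members depended mainly on the scaling. The shares of all features called under the alternative settings are not reported here. With both dsRNAs, the median was -0.79 with upper-quartile factors, and library size alone gave -0.35 with 2 members called higher. With dsRNA 3, upper-quartile factors gave -0.86, library size alone -0.42 with 2 called higher, and TMM without ribosomal protein genes or the replicate block 0 called higher. With dsRNA 2, upper-quartile factors gave -0.71 with 2 called higher, library size alone -0.27 with 52 lower and 2 higher, and removal of the exonic length trend -0.96. The last moved the median of dsRNA 3 minus dsRNA 2 to 0.01. Between the dsRNAs, 1 member was called higher with no filter, 2 with a filter of 1 CPM in 4 libraries, 2 with limma-voom and 4 with DESeq2, which called 5 lower. The share of counts differed by -9.41 points without the 100 most abundant other features, and the subunit ratio by 0.03 from medians. Under library size alone RpL21 stood at 0.00, RpS5b at 0.14 and, with dsRNA 2, RpL38 at 0.12, and RpL34a, RpS14b, RpS15Aa, RpS3A and RpL38 were no longer called with both dsRNAs. RpS10a, with few counts, stood at -0.03, -0.07 and -0.05 without dsRNA 2 replicate 1, dsRNA 3 replicate 1 or control replicate 2, and ran from -0.07 to 0.46 over all libraries left out. The causes were not tested. Leaving out 1 library at a time, members called higher with dsRNA 3 ran from 0 to 1, members called lower between the dsRNAs from 0 to 2, and the subunit ratio from -0.03 to -0.02. Of the alternative values tallied for single named genes, 1128 kept their direction and side of the threshold. Another 25 gained a call, 11 lost one (6 of them RpS15Ab with dsRNA 3) and 6 turned in direction. The tally pools settings that change the scaling with settings that do not, so that it does not measure dependence on the scaling. Under library size alone RpL21 was not called with dsRNA 3 either (log2 fold change -0.09 in place of -0.68, edgeR adjusted p = 0.33). Replicate numbers did not pair the samples: deviations of same-numbered libraries correlated at -0.03 between dsRNA 3 and dsRNA 2, and the replicate block changed no other count of members by more than 1.5 times. A lone library left in a group was assumed to vary like the others. RpS10a and RpL37b are limited by depth.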
